A study of Mus musculus with 23 samples.

Results

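Lactotransferrin (Ltf), lipocalin 2 (Lcn2), complement component 3 (C3), ceruloplasmin (Cp) and the polymeric immunoglobulin receptor (Pigr) are secreted or secretion-linked products that epithelia use for iron binding and mucosal defence. These 5 genes of the 27207 in the count table were chosen by symbol, and they were selected on their levels across the cultures described here, so that their differences between cultures are given as a description and carry no test. The study grew pancreatic ductal adenocarcinoma (PDAC) tumor cells of the mouse as flat cultures or as organoids, and sequenced the 3' ends of polyadenylated RNA in 23 bulk libraries with unique molecular identifiers, so that a count stands for a captured RNA molecule. A first batch held 2D cultures of KC cells (n = 6), KC organoids grown for 13 days in Matrigel (n = 3), and KC organoids from floating collagen after 7 days (n = 3) or 13 days (n = 5). A second batch held only collagen cultures of 13 days, from KC (n = 3) and from KPC cells (n = 3).

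KC cells came from a tumor of a mouse with Ptf1a Cre/+, and KPC cells from a tumor of a mouse with Pdx1 Cre/+, both pancreas-directed Cre drivers. The lines also differ in their tumor alleles. Each genotype is represented by cells of 1 mouse, so that genotype and cell line cannot be told apart. Matrigel is a basement membrane gel prepared from a mouse tumor, and the floating collagen was collagen I of rat tail. Organoids were freed from the gel with collagenase before lysis while 2D cells were lysed directly, so that any comparison with 2D also compares these preparations. The study describes the Matrigel and collagen libraries of the first batch as separate experiments. For the 2D and second-batch libraries the sources used here do not say so, and their spread and p-values may measure technical variation only.

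Lactotransferrin and ceruloplasmin act outside the cell on iron: the former binds ferric iron in milk, tears and other secretions, and the latter is a copper enzyme that oxidises ferrous iron and is known mainly from liver. Lipocalin 2 captures bacterial siderophores, the small molecules with which bacteria take up iron, and is induced in many inflamed epithelia, including those of the pancreas. C3 is the protein on which the pathways of complement activation converge, and it is made in liver and also by epithelia. The polymeric immunoglobulin receptor carries dimeric immunoglobulin A through epithelial cells and is cut at the apical surface, which releases secretory component into the lumen. Neutrophil granules are a further well known source of lactotransferrin and lipocalin 2.

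The genes lie on different chromosomes of GRCm38: Ltf on chromosome 9 (111019271 to 111042767, plus strand), Lcn2 on chromosome 2 (32384633 to 32388252, minus strand), C3 on chromosome 17 (57203970 to 57228136, minus strand), Cp on chromosome 3 (19957054 to 20009145, plus strand) and Pigr on chromosome 1 (130826684 to 130852249, plus strand). All are annotated as protein coding. Promoter windows of RefSeq on GRCm38.p6, from 250 bases before to 50 after a transcript start, were found for 5 of 5, with 2 starts for Cp. Ltf, Lcn2 and C3 had their counts almost entirely in the Matrigel libraries, and the bases before their starts are shown for that reason, up to the first base annotated as untranslated region. Capitals mark matches to the letters TTGCNNAA, a short form of the C/EBP motif, on either strand.
Ltf, chr9:111019042-111019270, plus strand: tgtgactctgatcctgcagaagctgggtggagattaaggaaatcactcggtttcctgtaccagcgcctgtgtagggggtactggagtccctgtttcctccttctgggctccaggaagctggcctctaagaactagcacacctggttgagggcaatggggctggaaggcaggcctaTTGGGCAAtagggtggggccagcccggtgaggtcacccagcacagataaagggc
Lcn2, chr2:32387798-32387989, minus strand: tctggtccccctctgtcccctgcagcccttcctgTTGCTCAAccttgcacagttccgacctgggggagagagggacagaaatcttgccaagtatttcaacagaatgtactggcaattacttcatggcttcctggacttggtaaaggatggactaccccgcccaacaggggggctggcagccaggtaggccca
C3, chr17:57228137-57228386, minus strand: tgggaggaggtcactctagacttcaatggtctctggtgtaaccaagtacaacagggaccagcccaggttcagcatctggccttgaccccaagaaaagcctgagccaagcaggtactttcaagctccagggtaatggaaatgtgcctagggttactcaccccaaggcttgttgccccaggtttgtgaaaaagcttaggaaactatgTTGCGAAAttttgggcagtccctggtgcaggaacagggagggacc
The Lcn2 stretch overlaps in part a coding exon of another annotated transcript of the gene.

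The letters TTGCNNAA or their reverse complement were present in the windows of 4 of the 5 genes and in 10.8% of all 32851 windows of this length. A gene counts once over all its windows, the second Cp start included, whereas the shares are of single windows. The matches were TTGGGCAA at -75 to -68 of the Ltf start, TTGCTCAA at -216 to -209 of Lcn2, TTGCGAAA at -45 to -38 of C3 and TTTTGCAA at -70 to -63 of the second Cp start, and Pigr had none. The NF-kB consensus was in none of the 5 and in 4.51% of all windows. Its looser form, which keeps only the outer GGG and CC, was in all 5, but also in 50.8% of all windows. The looser C/EBP letters TTNNGNAA, some of whose matches overlap those above, were in 4 of the 5 and in 40.7%. The STAT letters TTCNNNGAA matched in Pigr alone, after its start, against 8.3% of all windows, and the IRF letters, GAAA repeated after 2 free bases, matched in none, against 3.44%. TATAAA was found in C3, after its start, and at the second Cp start, and in 13.6% of all windows. These are matches of letters within short windows, and nothing was measured on binding.

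Total counts ran from 1221451 to 2471058 per library. Levels are given as CPM, counts scaled to a common library total with TMM factors. A count of 0 in a library allows up to 3 counts, which is 1.16 to 3.22 CPM depending on the library, and intervals below cover counting error only. The 6 libraries of 2D cells formed 2 sets: log2 CPM correlated across genes with r between 0.963 and 0.983 within replicates 1 to 3 and within replicates 4 to 6, and between 0.917 and 0.934 from one set to the other. The epithelial keratin genes Krt7, Krt8, Krt18 and Krt19 averaged at least 1138 CPM in every group. The ductal markers Epcam and Cldn4 were lower, with group means of 5.87 CPM at day 7 to 165 CPM in Matrigel for Epcam. Cldn4 averaged at most 3.72 CPM in any group. Of 12 neutrophil markers searched, 7 were in the table and their summed level was at most 2.09 CPM in any library. The defining leukocyte gene Ptprc stayed at a group mean of 1.14 CPM or less, and the hepatocyte gene Alb was at 0 in all 23 libraries. Other markers of these cells were present: Cd68 averaged 4.61 to 32.9 CPM across groups and the transthyretin gene Ttr 3.53 to 50.2 CPM. The 10 fibroblast markers summed to 34.8 to 210 CPM per library.

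**Figure D1:**
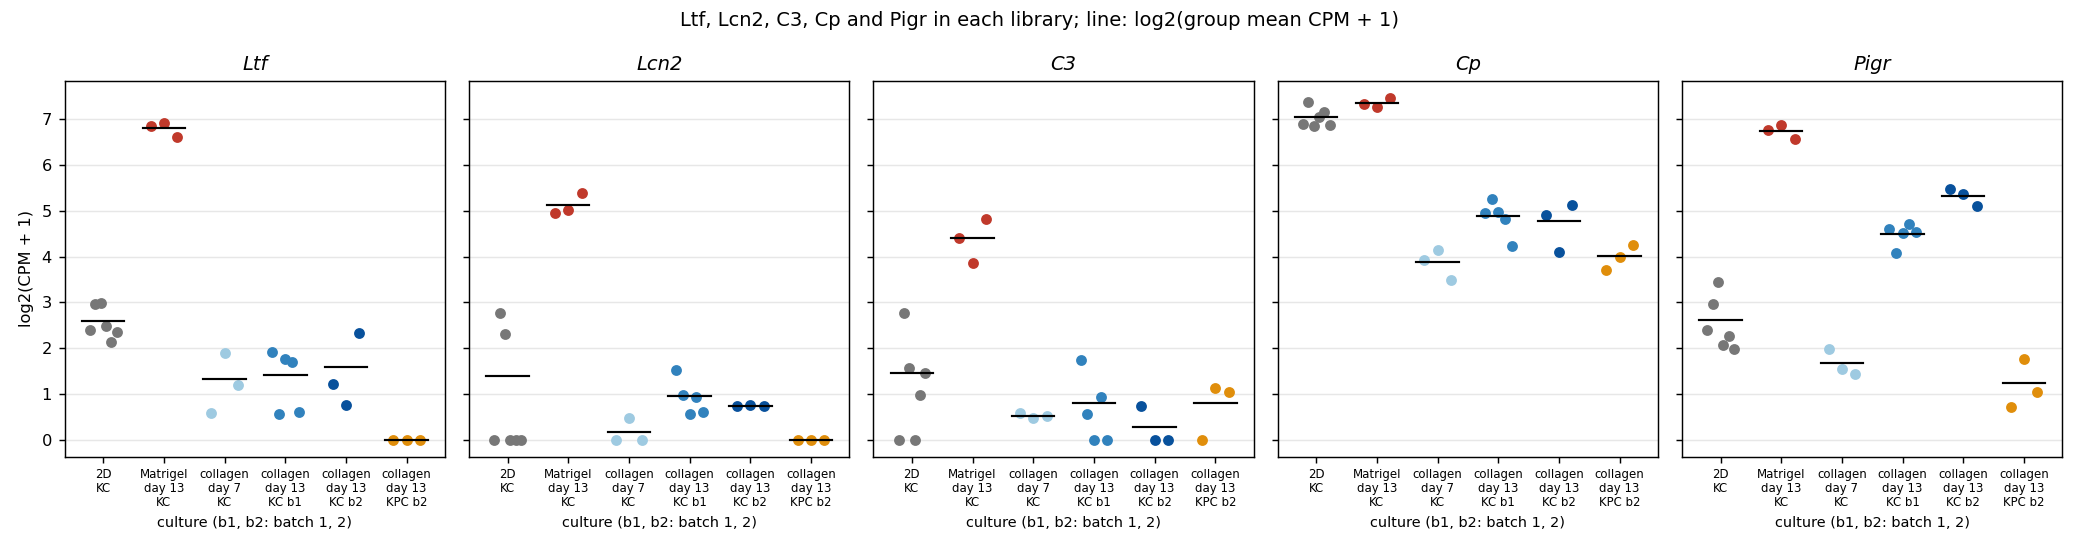
Level of each gene in each of the 23 libraries as log2(CPM + 1), with points for libraries and lines at log2(group mean + 1). Ltf, Lcn2 and C3 were high in the 3 Matrigel libraries and at 6.90 CPM or less elsewhere, Cp was high in 2D and Matrigel, and Pigr was graded across the organoids.

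Ltf was high in Matrigel and held at most 10 counts in any other library. Its level was 115, 120 and 96.2 CPM in the 3 Matrigel libraries, from 292, 276 and 165 counts. In 2D it ran from 3.36 to 6.90 CPM with a median of 4.43. The collagen libraries held 0.490, 2.71 and 1.28 CPM at day 7, and 2.78, 0.480, 2.39, 2.24 and 0.525 CPM at day 13 in the first batch. These collagen libraries overlapped freely and stood on 1 to 7 counts each. In the second batch KC organoids gave 1.32, 0.697 and 4.0 CPM, and none of the KPC libraries had a count. The lowest Matrigel library was 13.9 times the highest of the other 20. Below Matrigel the order was 2D (5.01 ± 1.48 CPM, SD, n = 6), the second batch of KC collagen at day 13 (2.01 ± 1.75, n = 3), the first batch (1.68 ± 1.10, n = 5), day 7 (1.49 ± 1.13, n = 3) and KPC at 0, and libraries of neighbouring groups overlapped from 2D down to day 7.

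Lcn2 was likewise seen almost only in Matrigel. The Matrigel libraries stood at 29.9, 31.4 and 40.8 CPM, from 76, 72 and 70 counts. In 2D, 4 of 6 libraries had no count and the others, replicates 2 and 3, had 6 and 4 counts. Collagen libraries held 0, 1 and 0 counts at day 7, 4, 2, 1, 2 and 1 at day 13 in the first batch and 1 in each library of the second, while KPC libraries had none. Outside Matrigel no library exceeded 5.82 CPM, and most were at or under the limit set by a count of 0. No order among the non-Matrigel groups can be read at this depth.

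C3 had the fewest counts in Matrigel and was again low elsewhere. Matrigel libraries held 51, 31 and 47 counts, or 20.1, 13.5 and 27.4 CPM. The 2D libraries ranged from 0 to 6 counts, with 0 in 2 of them and the highest value, 5.82 CPM, in replicate 2. Collagen gave 1, 1 and 1 counts at day 7, 5, 1, 0, 2 and 0 at day 13 in the first batch, and 1, 0 and 0 in the second. KPC libraries had 0, 2 and 2 counts. The Matrigel libraries lay above all others without overlap, and the remaining groups overlapped. Of all counts of a gene in the study, 90.2% for Ltf, 90.1% for Lcn2 and 81.6% for C3 came from the 3 Matrigel libraries, against 60.2% for Pigr and 37.5% for Cp.

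Cp departed from that pattern, since 2D cells had it at nearly the level of Matrigel organoids. Matrigel libraries stood at 161, 153 and 175 CPM (163 ± 11.2, SD, n = 3), and 2D libraries ran from 114 to 164 CPM with a median of 124 (131 ± 19.4, n = 6), with overlap. All collagen libraries were lower. At day 7 they held 14.2, 16.7 and 10.2 CPM, at day 13 in the first batch 30.1, 37.4, 30.1, 27.3 and 17.9 CPM, and in the second batch 29.1, 16 and 34 CPM. KPC organoids gave 12.1, 15.0 and 17.9 CPM. Neighbours overlapped from the first batch at day 13 (28.6 ± 7.06, n = 5) through the second batch (26.4 ± 9.29, n = 3) and KPC (15.0 ± 2.91, n = 3) to day 7 (13.7 ± 3.24, n = 3), whereas 2D and the day 13 collagen organoids did not.

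Pigr was graded. Matrigel libraries were highest with 108, 116 and 93.8 CPM. KC collagen organoids of the second batch came next with 43.7, 40.4 and 33.3 CPM, followed by those of the first batch with 23.2, 15.8, 22, 25.1 and 22.1 CPM. In 2D the level ran from 2.94 to 9.86 CPM with a median of 4.07. Day 7 collagen held 2.94, 1.94 and 1.71 CPM, and KPC organoids 0.639, 2.39 and 1.06 CPM from 1, 4 and 2 counts. Only the lowest pair, day 7 and KPC, overlapped between neighbouring groups. The lowest 2D and the highest day 7 library both stood at 2.94 CPM, so that these groups were barely apart. In 2D, replicates 1 to 3 lay higher (6.98 ± 2.79, n = 3) than replicates 4 to 6 (3.33 ± 0.463, n = 3), while Cp was 132 and 129 CPM in these sets.

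The first comparison set Matrigel against collagen organoids of the same cells and day. As the study describes them, the collagen gels floated and held branched organoids, while Matrigel held spheres. Matrix, gel format and organoid shape cannot be told apart here. All 5 genes were higher in Matrigel than in collagen at day 13, within the first batch. The log2 fold change was 5.96 for Ltf (SE 0.27), 5.05 for Lcn2 (SE 0.50) and 4.60 for C3 (SE 0.55), and it was 2.5 for Cp (SE 0.18) and 2.29 for Pigr (SE 0.16). In summed counts, Ltf was 65.1 times as high in Matrigel (95% interval 40.9 to 110), Lcn2 34.8 times (18.6 to 73.7) and C3 25.8 times (12.7 to 61.0), against 5.62 times (4.94 to 6.41) for Cp and 4.93 times (4.24 to 5.76) for Pigr. The edgeR fit, called at a false discovery rate of 0.1, called 5 of the 5, beside 12.9% of all 11144 tested genes. Nothing can be read from that count, or from those of the later comparisons, since levels in all these cultures entered the choice. Ltf, Lcn2 and C3 passed the filter on low counts, which all comparisons share, only through the Matrigel libraries. In bulk libraries more cells that make a product cannot be told apart from more RNA per cell. The collagen value of C3 rested partly on replicate 1: without it the log2 fold change was 5.55, and that of Lcn2 5.42.

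**Figure D2:**
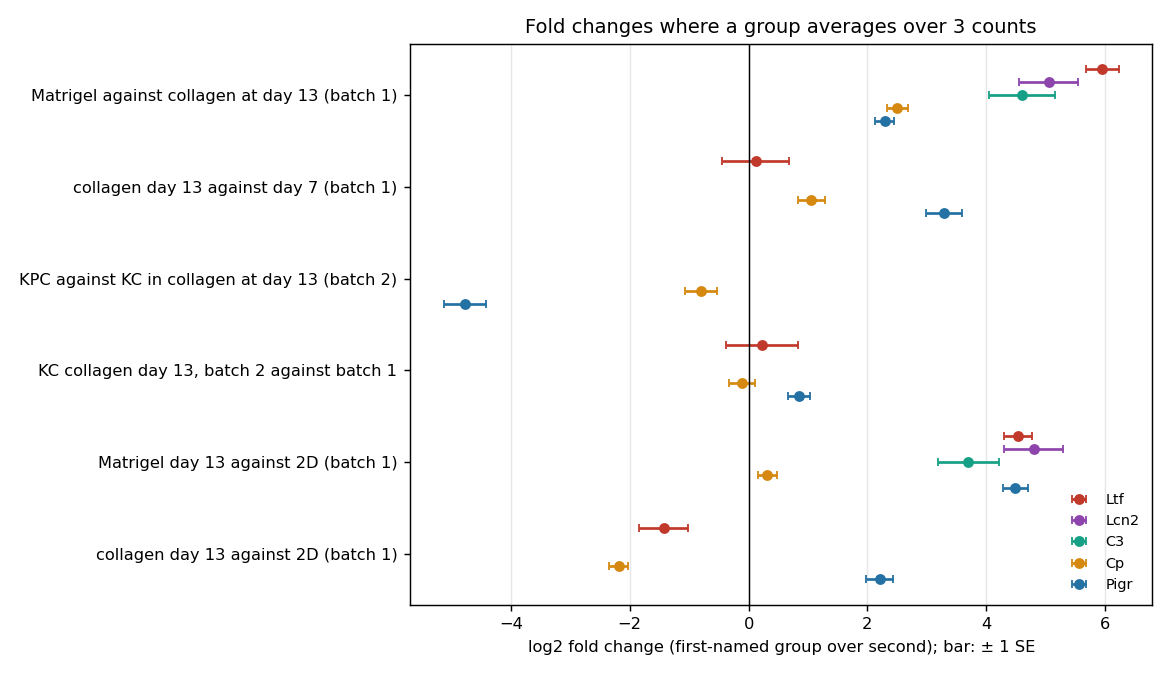
Log2 fold change (x axis, first-named group over the second) of each gene in 6 comparisons, with bars of 1 SE from the edgeR fit, shown where at least 1 group averages over 3 counts. The separation of Ltf, Lcn2 and C3 from Cp and Pigr is seen in the first row, and Pigr at -4.78 is the lowest point, in the KPC row.

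The 5 genes were set among 162 related genes in 6 lists covering iron handling, complement, acute phase proteins, secreted mucosal defence, immunoglobulin transport, and NF-kB, IL-1, IL-17 and IL-6 signalling. Of these, 137 were in the table and 83 were tested. The lists were chosen with earlier results of these data known, so that their counts of calls are given as a description. In Matrigel against collagen, 24 of the 83 were called higher and 7 lower by edgeR, beside 6.62% and 6.29% of all tested genes. Their median log2 fold change was 0.11, against -0.01 over all tested genes.

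Complement genes other than C3 were on balance higher in Matrigel. Of 6 tested, 4 rose and none fell, with a median log2 fold change of 1.15. Cfb, the serine protease of the alternative pathway convertase, rose from 3.35 ± 0.566 CPM in collagen (SD, n = 5) to 10.3 ± 0.863 in Matrigel (n = 3; log2 fold change 1.61, edgeR adjusted p = 0.000739), and clusterin (Clu), a secreted chaperone that also inhibits the terminal complex, rose from 8120 ± 852 to 13122 ± 607 CPM (0.69, edgeR adjusted p = 0.00031). C4b, a relative of C3 that shares near-identical sequence with another gene and is uncertain for that reason, was not tested. It had 5 to 12 counts in each Matrigel library and at most 2 in any other, while the relative Hc, which encodes C5, had a count in 1 KPC library and none elsewhere.

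Of the acute phase list only 2 genes could be tested, and both rose: Lbp, the lipopolysaccharide binding protein, from 13.5 ± 4.16 to 46.7 ± 1.62 CPM (log2 fold change 1.78, edgeR adjusted p = 4.34e-06), and its partner Cd14 from 88.4 ± 20.1 to 210 ± 15.1 CPM (1.24, edgeR adjusted p = 1.49e-06). The other genes of the list averaged 4.47 CPM or less in Matrigel, the value of haptoglobin (Hp), which is named after its value was seen and had 28 counts in Matrigel and 1 in collagen. In the mucosal defence list calls went both ways, with 4 of 7 higher and 3 lower. Pglyrp1, a bactericidal peptidoglycan recognition protein, rose from 141 ± 36.1 to 378 ± 58.3 CPM (1.42), and Dmbt1, a mucosal scavenger protein that binds bacteria, from 407 ± 52.6 to 958 ± 45.4 CPM (1.23). Wfdc2 rose by 0.84, whereas the neighbouring and overlapping ribonuclease genes Ang and Rnase4 fell by 1.07 and fell by 0.98 on the log2 scale.

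Of 20 iron handling genes tested, 2 were higher and 1 lower, with a median log2 fold change of -0.05. Transferrin (Trf), the serum relative of Ltf, was one of the 2 that rose, from 47.0 ± 14.7 to 137 ± 1.73 CPM (log2 fold change 1.54, edgeR adjusted p = 7.54e-05). The other was the metalloreductase Steap2 (0.67, edgeR adjusted p = 0.00902), and Ftl1, the ferritin light chain, fell by 0.43 on the log2 scale, a call that was lost without Matrigel replicate 3, with no filter and with library size alone. Trf differed from Ltf in 2D, where it stood at 186 ± 58.1 CPM (n = 6). The further transferrin relative Meltf and the ceruloplasmin relative Heph had at most 1 and 2 counts in any library.

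Of the genes for transport of immunoglobulin, none of 12 rose and 1, the vesicle GTPase gene Rab3d, fell by 0.41 on the log2 scale (edgeR adjusted p = 0.032), a call lost under 5 alternatives. In the signalling list 12 of 36 rose and 2 fell, with a median of 0.30. The NF-kB and TNF response gene Tnfaip2 rose from 148 ± 16.8 to 373 ± 13.5 CPM (1.34, edgeR adjusted p = 1.74e-08). The cytokine gene Lif rose by 1.24, a call that was lost without Matrigel replicate 2, and the C/EBP delta gene Cebpd by 1.16 (edgeR adjusted p = 4.48e-06). Socs3, the feedback inhibitor of IL-6 type signalling, moved the other way and fell by 0.73 on the log2 scale (edgeR adjusted p = 3.71e-05), as did the superoxide dismutase gene Sod2, which fell by 0.33 (edgeR adjusted p = 0.0821), a call lost under 10 alternatives.

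Markers of other cells were examined beside these differences. The summed level of the 9 leukocyte and macrophage markers in the table was 32.7 to 38.8 CPM in Matrigel and 13.4 to 23.1 CPM in collagen at day 13, and this was nearly all Cd68, a lysosomal protein gene (32.9 against 16.3 CPM, edgeR adjusted p = 0.00836), with Ptprc at 0.520 and 0.284 CPM. The 7 neutrophil markers summed to at most 0.787 CPM in Matrigel, where only 2 had a count. No fibroblast, hepatocyte or acinar marker was called. Among ductal markers 4 of 11 rose, and Epcam was at 165 CPM in Matrigel and 56.2 CPM in collagen (log2 fold change 1.56, edgeR adjusted p = 8.64e-07). The part of these markers in the differences of the 5 genes was not tested.

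**Figure D3:**
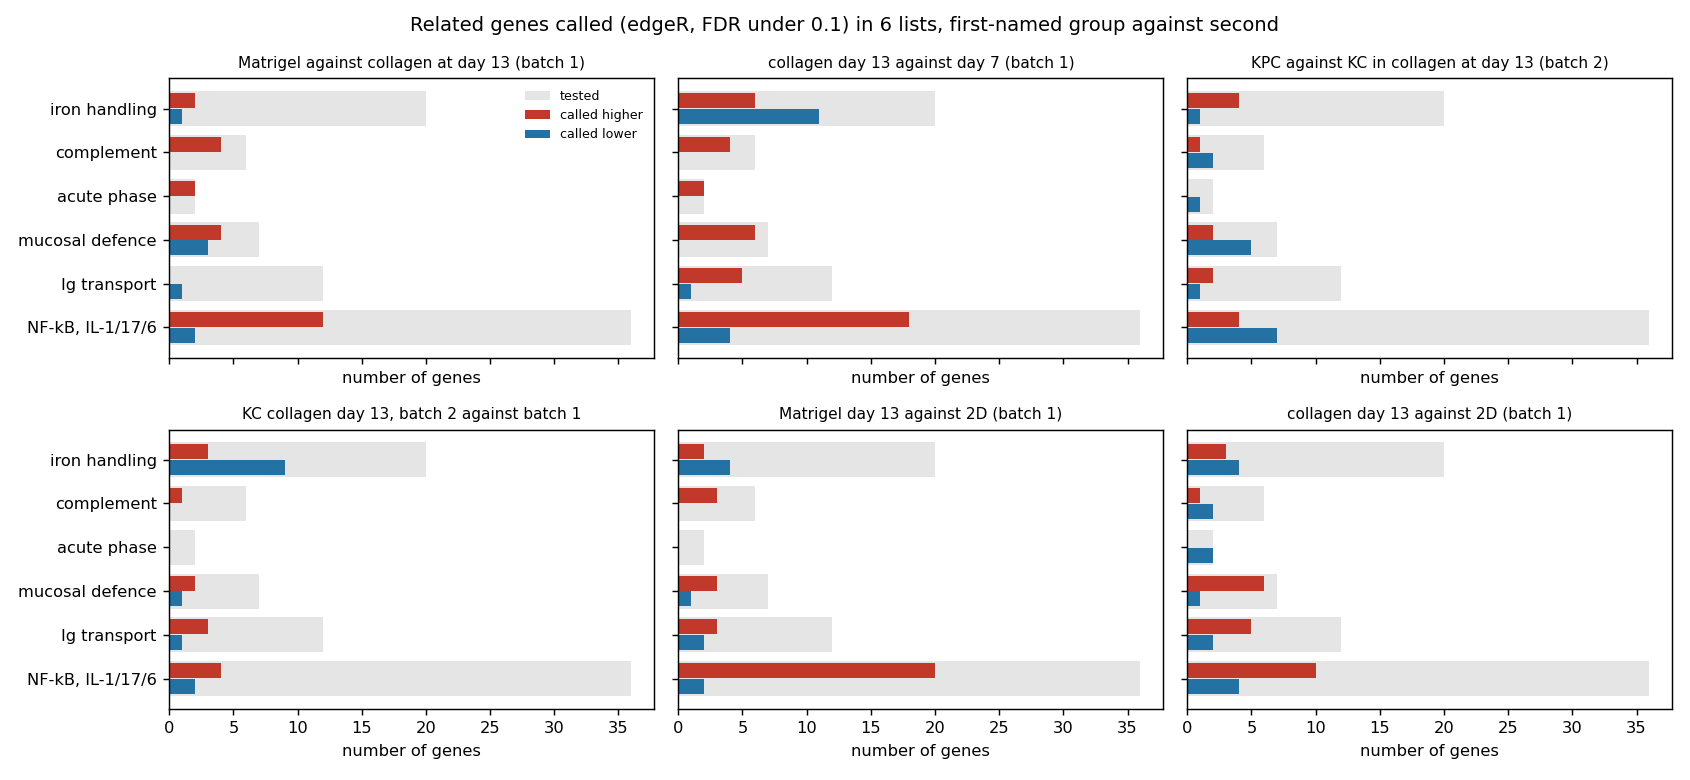
Number of genes (x axis) tested, called higher and called lower by edgeR at a false discovery rate of 0.1 in 6 lists of related genes, in 6 comparisons. In Matrigel against collagen the called complement and acute phase genes were all higher, while iron handling held 2 higher and 1 lower of 20.

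The second comparison followed collagen organoids from day 7 to day 13 in the first batch. Pigr and Cp were higher at day 13, and Ltf was not separated. Pigr went from 2.19 ± 0.657 CPM (SD, n = 3) to 21.6 ± 3.48 (n = 5), a log2 fold change of 3.29 (SE 0.30), and Cp from 13.7 ± 3.24 to 28.6 ± 7.06 CPM, a change of 1.06 (SE 0.23). Neither gene's libraries overlapped between the days. Non-overlap held for 3 of the 5 genes, the other being Lcn2 on few counts, beside 48.3% of all tested genes. Ltf changed by 0.12 (SE 0.56), and without day 7 replicate 2 by 0.87. For Lcn2 and C3, with 1 and 3 counts in all day 7 libraries and 10 and 8 at day 13, a difference was not detectable at this depth. The fit called 2 of the 5, beside 55.1% of all tested genes.

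Related genes changed widely over the same days, 41 of 83 higher and 16 lower, beside 27.1% and 28.1% of all tested genes, with a median log2 fold change of 0.32. In the mucosal defence list 6 of 7 rose and none fell. Lypd8, which keeps flagellated bacteria from the gut epithelium, rose by 3.36 from 3.24 ± 1.28 CPM (edgeR adjusted p = 9.23e-08), Pglyrp1 by 3.15 from 15.8 ± 4.80 CPM (edgeR adjusted p = 1.68e-11) and Dmbt1 by 2.81 from 58.0 ± 15.8 CPM (edgeR adjusted p = 4.77e-11). Immunoglobulin transport genes were 5 higher and 1 lower of 12, among them Fcgrt, the neonatal Fc receptor, and Rab17, a GTPase of transcytosis (each 1.5). Iron handling genes were 6 higher and 11 lower of 20. Those that rose were led by the ferric reductase gene Cybrd1 (5.23), the iron exporter gene Slc40a1 (2.24) and Trf (2.02), and those that fell by Steap1 (-1.16), Slc39a14 (-1.03) and Hmox1 (-1.01). Complement genes rose in 4 of 6, with Cd55 at 1.45 and Clu at 0.92, and both tested acute phase genes rose, Lbp by 2.61. In the signalling list 18 of 36 rose and 4 fell, with the receptor gene Il17re at 3.58 and Il1a at 3.25, while the IL-1 receptor antagonist gene Il1rn fell by 1.5 on the log2 scale. Over these days 6 of 11 ductal markers were called higher and 2 lower, and Cd68 and the 2 tested hepatocyte and acinar markers were also higher, and their part in the changes of the 5 genes was not tested.

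The third comparison set KPC against KC organoids in collagen at day 13, within the second batch. Pigr was lower in KPC, with no overlap between the libraries: 39.2 ± 5.31 CPM in KC (SD, n = 3) and 1.36 ± 0.917 in KPC (n = 3), a log2 fold change of -4.78 (SE 0.36). Libraries did not overlap for 37.3% of all tested genes in this comparison. In summed counts, 7 in KPC against 174 in KC, the ratio was 0.0349 (95% interval 0.0138 to 0.0734). Cp was 26.4 ± 9.29 in KC and 15.0 ± 2.91 CPM in KPC with overlap, a change of -0.80 (SE 0.27). Ltf had 2, 1 and 6 counts in KC and 0 in each KPC library, where a count of 0 allows 1.58 to 1.92 CPM, so that the levels lie at the limit of the depth. Lcn2 (1, 1 and 1 counts against 0) and C3 (1, 0 and 0 against 0, 2 and 2) were at or under that limit in both. The fit called 3 of the 5, beside 19.9% of all tested genes, and the call of Ltf rests on these few counts. Without KPC replicate 2 the Pigr change was -5.40.

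Among related genes, 13 of 83 were higher and 17 lower in KPC, beside 9.58% and 10.4% of all tested genes, with a median log2 fold change of -0.02. With library size alone these were 14 and 11, and the median of all tested genes moved by 0.12. All 7 genes of the mucosal defence list were called, 2 higher and 5 lower. Zg16, a lectin gene of goblet cells, stood at 213 ± 121 CPM in KPC and 26.0 ± 11.9 in KC (log2 fold change 3.03, edgeR adjusted p = 2.61e-06) and Lypd8 at 196 ± 89.1 against 68.4 ± 3.70 CPM (1.52, edgeR adjusted p = 0.000171). Dmbt1 fell by 1.42, Pglyrp1 fell by 0.81 and Rnase4 fell by 0.72 on the log2 scale. Calls among genes that act with Pigr went both ways: of 12 in the transport list 2 were higher, the adaptor gene of basolateral sorting Ap1m2 (2.45, edgeR adjusted p = 0.000206) and Rab11fip5 (1.10), and 1 lower, Rab17 (-1.54, edgeR adjusted p = 0.00626). In the signalling list 4 of 36 were higher and 7 lower, and the largest change among the genes that fell was that of Il1a, at 9.94 ± 0.331 CPM in KPC and 42.5 ± 4.02 in KC (-2.09, edgeR adjusted p = 1.44e-06). Iron handling genes were 4 higher and 1 lower of 20, the latter being Ncoa4, the receptor that delivers ferritin to lysosomes (-1.32, edgeR adjusted p = 0.000247). Complement genes were 1 higher and 2 lower of 6. Hepatocyte and acinar markers summed to 51.1 to 88.6 CPM in KPC and 34 to 37.0 in KC, of which transthyretin (Ttr) averaged 50.2 and 17.3 CPM, and Cd68 averaged 7.41 and 18.9 CPM. Of 11 ductal markers 2 were higher, with Cldn7 at 195 CPM in KPC and 7.88 in KC, and 2 were lower. The part of these markers in the differences was not tested.

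KC organoids in collagen at day 13 were sequenced in both batches, which gives the size of a difference between batches with no change of cells, matrix or day. Pigr was higher in the second batch, 39.2 ± 5.31 (SD, n = 3) against 21.6 ± 3.48 CPM (n = 5), a log2 fold change of 0.85 (SE 0.19), and the libraries did not overlap. The same held for 35.9% of all tested genes. Cp differed by -0.11 (SE 0.22) and Ltf by 0.23 (SE 0.61), which became -0.71 without replicate 3 of the second batch. The fit called 1 of the 5, beside 37.3% of all tested genes. Related genes were 13 higher and 13 lower of 83, beside 19.3% and 18.1%, with a median of 0.03. Iron handling genes made up most of those that fell, 9 of 20, led by Ftl1 with 1130 ± 177 CPM in the first batch and 173 ± 18.2 in the second (-2.70, edgeR adjusted p = 3.31e-12), a gene with several near-identical copies whose counts are uncertain. Trf fell by 1.25 on the log2 scale and Slc40a1 fell by 0.95. In the transport list Rab5a rose by 1.58, Myo5b by 0.91 and Rab3d by 0.45.

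Against 2D cells, Matrigel organoids had higher Ltf, Lcn2, C3 and Pigr and a Cp level that overlapped that of 2D. The log2 fold change was 4.53 for Ltf (SE 0.24), 4.80 for Lcn2 (SE 0.50), 3.70 for C3 (SE 0.51) and 4.49 for Pigr (SE 0.20), and 0.32 for Cp (SE 0.16), whose summed counts were in a ratio of 1.23 (95% interval 1.13 to 1.34). The fit called 4 of the 5, beside 42% of all tested genes. The 2 sets of 2D libraries bear on Lcn2: against replicates 1 to 3 alone its change was 3.30, while replicates 4 to 6 held no count, and without replicate 2 it was 5.89. Against these sets Pigr was higher by 3.90 and 4.99, and Ltf by 4.18 against the first. Related genes were 31 higher and 9 lower of 83, beside 20.1% and 21.9%, with a median of 0.16. With libraries scaled by their size alone these were 41 and 2, and the median of all tested genes then moved by 0.26. The signalling list held 20 of the genes that rose, out of 36 tested, with Il1a from 6.12 ± 1.53 CPM in 2D to 72.7 ± 4.47 in Matrigel (3.62, edgeR adjusted p = 1.8e-12) and the ribonuclease gene Zc3h12a, which limits inflammatory messages, at 1.92. Of complement genes 3 of 6 rose, with Cfb at 1.92. Lypd8 (3.92), Pglyrp1 (2.59) and Dmbt1 (2.55) rose, and Wfdc2 fell by 0.93 on the log2 scale. Neither of the 2 acute phase genes was called (edgeR unadjusted p = 0.647 for Lbp and 0.456 for Cd14), and 2 of 20 iron handling genes were higher and 4 lower. Cd68 and 8 of 11 ductal markers were also higher in Matrigel than in 2D, and their part in the differences was not tested.

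Collagen organoids at day 13 differed from 2D in opposite directions for Pigr and for Cp and Ltf. Pigr was higher by 2.20 (SE 0.23), by 1.59 against 2D replicates 1 to 3 alone and by 2.70 against replicates 4 to 6 alone. Cp was lower, with a log2 fold change of -2.19 (SE 0.16), and Ltf was lower, with -1.43 (SE 0.41), from 4 to 10 counts per 2D library and 1 to 6 per collagen library. Differences of Lcn2 and C3 were not detectable at this depth. The fit called 3 of the 5, beside 49.6% of all tested genes. Related genes were 25 higher and 15 lower of 83, beside 23.3% and 26.3%, with a median of 0.12. Library size alone gave 29 and 11. Mucosal defence genes rose in 6 of 7, among them Lypd8 (3.25), Dmbt1 (1.32) and Ang (1.23), and Wfdc2 fell by 1.77 on the log2 scale. Genes that fell, as the Cp level did, included Trf (-1.96, edgeR adjusted p = 8.77e-08), Lbp (-1.68, edgeR adjusted p = 5.24e-07), Cd14 (-1.14) and Clu (-0.75). Of 4 fibroblast markers 2 were also lower in collagen, while 6 of 11 ductal markers and Cd68 were higher, and their part in these differences was not tested.

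The tested genes whose levels were most like those of each of the 5 were found by Pearson's r of log2 CPM over the 23 libraries, which share the 6 culture groups, so that r mainly reflects differences between groups. Ltf, Lcn2 and C3 were chosen on their levels in these groups and passed the filter only through Matrigel. Nothing can be read from their nearness to each other for that reason. They were among the nearest genes of each other, with r of 0.902 for Ltf and Lcn2, 0.855 for Ltf and C3 and 0.923 for Lcn2 and C3. Within groups, after the group means were removed, r was 0.418, 0.267 and 0.724 for these pairs. Such values were not particular to them: r within groups was 0.640 for Lcn2 and Pigr, 0.461 for C3 and Pigr and 0.408 for Ltf and Cp. The remaining pairs of the 5 genes ran from -0.044 to 0.361. Outside Matrigel the values of Ltf, Lcn2 and C3 rest on few counts, and Lcn2 and C3 both had their most there, 6 counts, in 2D replicate 2. Tnfrsf11b, which encodes the decoy receptor osteoprotegerin, and Il1f6, the IL-36 alpha gene, were near Ltf, Lcn2 and C3 alike. Tnfrsf11b averaged 36.8 CPM in Matrigel and at most 5.27 CPM elsewhere, and Il1f6 averaged 8.70 and at most 0.675 CPM. The channel gene Kcnq1 was near Ltf alone (r = 0.875), the extracellular matrix gene Ecm1 near Lcn2 (r = 0.907) and Ltbp2, which binds microfibrils, near C3 (r = 0.825).

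The neighbours of Cp and Pigr were other genes. Cd14 (r = 0.965) and Clu (r = 0.931) followed Cp most closely, then the retinol transporter gene Stra6 (0.914), the adhesion gene Vcam1 (0.913) and Ly6e (0.913), all with 2D close to Matrigel and collagen lower. Cd14 averaged 194 CPM in 2D, 210 in Matrigel and 50.8 to 89.9 in the collagen groups. Around Pigr were Plekhs1 (r = 0.944), Gm15848 (0.942), Tc2n (0.934), the membrane mucin gene Muc3 (0.923) and Dcxr (0.902). Muc3 averaged 77.0 CPM in Matrigel, 53.0 and 48.8 in KC collagen at day 13 of the first and second batch, and 3.59 to 4.84 CPM in day 7, 2D and KPC cultures.

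**Figure D4:**
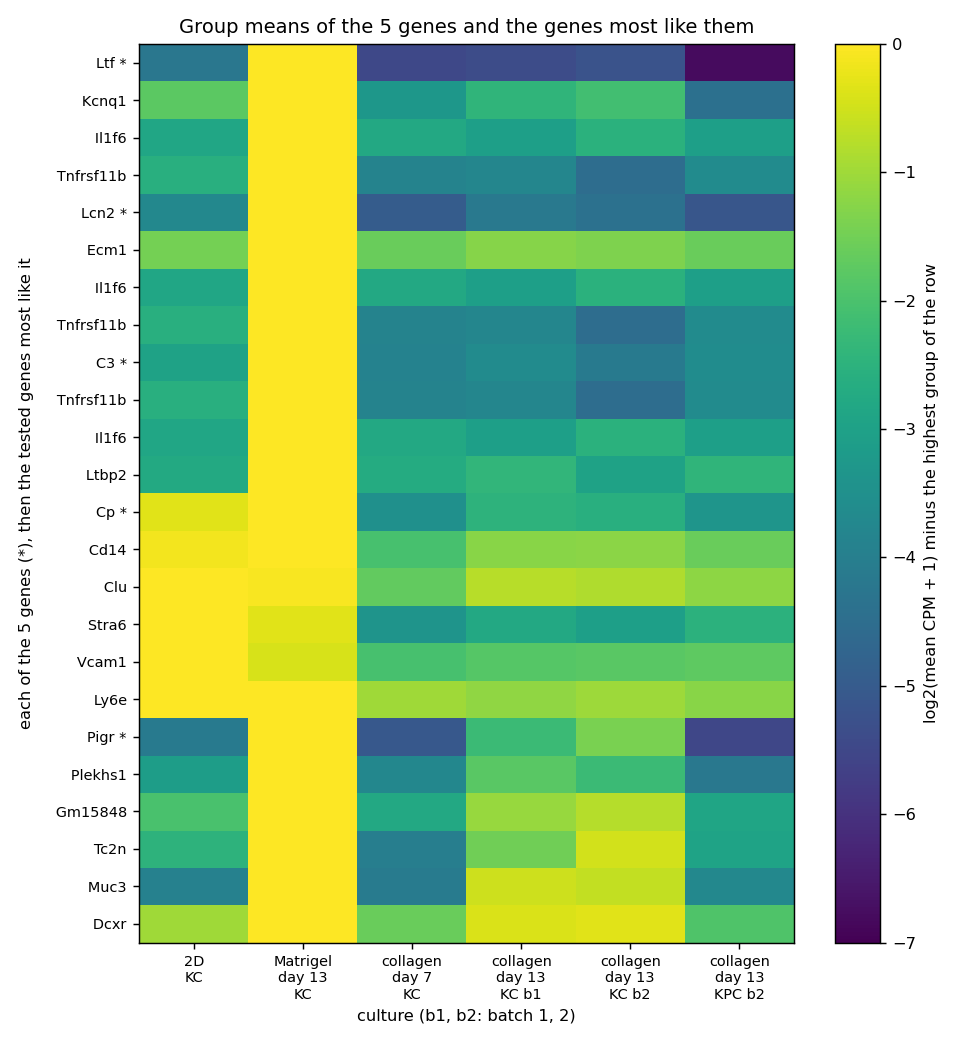
Heat map of group means for the 5 genes (asterisks) and the tested genes most like each, as log2(mean CPM + 1) minus the highest group in the row (colour scale), with cultures on the x axis. The Ltf, Lcn2 and C3 blocks peak in Matrigel, the Cp block in 2D and Matrigel, and the Pigr block also extends to KC collagen at day 13.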

How the data were processed

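Bulk libraries of 2D cells and organoids (23 in all) were made by the authors from 3' ends of polyadenylated RNA, aligned to GRCm38 and counted over GENCODE M25 genes by the pipeline of the Drop-seq method. What they deposited are whole-number UMI counts per gene, with no normalization. Total counts had a median of 1845921 per library. Samples were grouped by their labels. Counts were fitted with edgeR 4.0.16 in R 4.3.3 (glmQLFit, TMM factors, 1 fit with 6 groups and no block), for the 11144 genes kept by filterByExpr, with Benjamini-Hochberg adjustment over these and calls at 0.1, the rate in the study's methods. CPM and log2 CPM (prior count 2) use the same factors. Standard errors were derived from the fitted log2 fold change and its F statistic. Fold changes are given where a group averaged over 3 counts. Intervals are exact, at 95%. Calls for one group and not another do not test their difference.

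The 5 genes and the lists were chosen with earlier results of these data known. Named related genes were up to 3 per list and direction with the largest called change, a mean of 10 CPM or more where higher, and non-overlapping libraries, together with relatives and markers of other cell types, and the 5 nearest genes by r. Genes outside this rule are named as such, and some items within it are not reported here. Alternatives were DESeq2 1.42.0, its size factors, library size alone, no filter, a rate of 0.05, only the compared groups, a replicate block and each library left out. The split of the 2D libraries was added after seeing the data. On simulated counts for 11144 genes, edgeR recovered 80 of 100 genes changed 2-fold and 100 of 100 changed 4-fold between Matrigel and collagen, and 60 and 94 of 100 between KPC and KC. False calls numbered 19 and 12. The changed genes had at least 5 expected counts on average before the change. Ltf, Lcn2 and C3 averaged fewer in collagen, so that these rates do not cover them. Positions are from GENCODE M21 and promoters from RefSeq, both on GRCm38. In the reported fit libraries were not paired by replicate number.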

Additional observations from a re-analysis of the deposited data

Results flagged for a closer look

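Among the 5 genes in the 2 groups of more than 3 libraries, one value stood apart from the rest of its group: Pigr in replicate 2 of the first batch of KC collagen at day 13 was at 15.8 CPM, from 33 counts, against 22 to 25.1 CPM in the other 4 libraries. Its gap on the log2 scale was 0.714 of the range, just past the critical value of 0.71, and chance passes such a value in about 5% of groups, with 10 sets examined.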

How the results depend on the processing

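The number of related genes called stayed within 1.5 times under every alternative tried for each of the 6 comparisons: 24 to 38 in Matrigel against collagen, 50 to 62 between the days, 21 to 39 in KPC against KC, 19 to 29 between batches, 35 to 47 in Matrigel against 2D and 29 to 45 in collagen against 2D. With each library left out these were 24 to 30, 50 to 56, 22 to 25, 19 to 27, 36 to 43 and 35 to 40. With the replicate block the counts were 28, 58, 32, 26, 43 and 39. Same-numbered libraries of different groups did not deviate together on average (mean r -0.0016), with single pairs in the 6 comparisons from -0.118 to 0.154. The labels do not say whether the numbers pair them, and a mean over all groups cannot exclude pairing in single comparisons. With the block, Lcn2 changed by 4.49 in Matrigel against collagen and by 3.66 against 2D, and Ltf by 4.21 against 2D. Library size alone moved the median of all tested genes by 0.12 in KPC against KC, where it gave 14 related genes higher and 11 lower, by -0.14 between batches, by 0.26 in Matrigel against 2D and by 0.20 in collagen against 2D. It turned Cebpb to 0.0135 in Matrigel against 2D, where the reported value was -0.26, and gave 0.60 for Cp. The other values of the 5 genes that moved by more than the spread between libraries stand beside their results, except that of Lcn2 against the 2D libraries without a count, for which no fold is given. Of the named related genes, calls were lost in 50 of the alternative fits of single genes and in 53 of those that left out a library, and 873 and 951 kept theirs. The cause was not tested. Lcn2, C3 and Ltf outside Matrigel are limited by depth.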

Other observations

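Among the acute phase genes, Serpina1b, which encodes an alpha-1-antitrypsin and belongs to a family of near-identical genes, had no count in any KC library and 59 counts in the KPC libraries, 58 of them in a single library, where it stood at 34.7 CPM. It was picked out after its values were seen.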
